A study of Homo sapiens with 12 samples.

Results

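The genes described here are 10 genes of the NF-kB response, 6 chemokines, the cytokine LIF and 3 feedback genes, measured in CD133+ and CD133- cells of 3 gastric cancer lines. They were CXCL1, CXCL2, CXCL3, CXCL5, IL8, CCL20, LIF, NFKBIA, TNFAIP3 and BIRC3. They were taken as a named list, each by its own row of the deposited table, and are 10 of the 34595 genes with a value. Cells of KATO-III, SNU-216 and SNU-601, established lines kept in medium with calf serum and with no treatment named, were stained for CD133, the membrane glycoprotein encoded by PROM1. The brightest 10% were collected as CD133+ and the dimmest 6% as CD133- cells. RNA of each of the 6 populations was hybridized to 2 Illumina HT-12 v3 BeadChips, which gave 12 arrays. The array labels name SNU-216, whereas the series text has SNU201 in its place. The labels number the 2 arrays of a population as replicates without naming separate sorts, so p-values measure only the spread between these arrays, which may be technical.

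NF-kB is a family of transcription factors that cytokines and microbial products release into the nucleus. In epithelial cells it induces chemokines that draw in neutrophils and lymphocytes, and at the same time the inhibitors that end its own activity. CXCL1, CXCL2, CXCL3, CXCL5 and IL8 are neutrophil chemokines that act through the receptor CXCR2, and IL8 also acts through CXCR1. CCL20 acts through CCR6, and LIF, a cytokine of the interleukin-6 family, acts through LIFR and IL6ST to activate STAT3. NFKBIA encodes the inhibitor that holds NF-kB in the cytoplasm, TNFAIP3 the ubiquitin-editing enzyme A20, and BIRC3 a ubiquitin ligase that restrains cell death.

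All 7 epithelial markers, EPCAM, CDH1, KRT8, KRT18, KRT19, CLDN4 and CLDN7, lay above background on all 12 arrays, and every array of CD133+ cells had more PROM1 than the CD133- arrays of its line. PTPRC, the marker shared by blood cells, did not rise above background on any array. Of 9 blood markers 1 to 3 did in a population, with a summed intensity between 51.0 and 1242. Most of the sum was CD14 in KATO-III, with a mean of 846 ± 14.7 (SD) over the CD133+ and 1222 ± 28.6 over the CD133- arrays, and its part in the differences below was not tested. Of 9 fibroblast and endothelial markers at most 1 did, with sums between -60.5 and 113. Intensities were compared as log2 values after all values under 32.7 had been set to that floor, the size of the lowest percentile of the deposited values. A gene was tested if 2 or more arrays exceeded the floor, which held for 20147 genes, these 10 among them. CXCL3 exceeded it on 10 arrays, CXCL5 on 8 and the others on all 12. In a sorted population, a higher level in every cell and a larger share of expressing cells cannot be told apart.

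The 5 CXC chemokine genes lie together on chromosome 4, and their promoters carry the same NF-kB word. Promoters from 250 bases before to 50 after the gene start were available from RefSeq for 9 of the 10 genes (build GRCh38.p14), LIF being the exception. They were searched on both strands for GGANTTNCC, a form of the NF-kB binding site, where N is any base. It was found in 8 of the 9, against 4.27% of all 35116 promoters. The genes were listed for being part of the NF-kB response, so these shares are a description and no test of enrichment. In all 5 CXC chemokine promoters the word stood on the strand of the gene, 77 to 91 bases before the start. The stretches around it are shown to let the chemokine promoters be compared, 5′ to 3′ on the strand of the gene, with the match in capitals.
CXCL1, chr4:73869290-73869348, plus strand: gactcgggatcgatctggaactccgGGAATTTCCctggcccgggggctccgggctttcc
CXCL2, chr4:74099239-74099297, minus strand: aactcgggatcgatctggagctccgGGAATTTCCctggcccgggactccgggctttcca
CXCL3, chr4:74038734-74038792, minus strand: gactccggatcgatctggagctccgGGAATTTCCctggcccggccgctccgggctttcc
CXCL5, chr4:73998734-73998792, minus strand: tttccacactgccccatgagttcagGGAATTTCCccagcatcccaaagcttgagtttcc
IL8, chr4:73740453-73740511, plus strand: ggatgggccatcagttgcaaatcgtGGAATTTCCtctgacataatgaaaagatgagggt

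These stretches of CXCL1 and CXCL3 were identical at 93.2% of 59 positions without gaps, and CXCL1 and CXCL2 at 81.4%. CXCL5 and IL8 shared 30.5% with each other. CXCL1, CXCL2 and CXCL3 are also close copies in their transcripts, and the probe sequences were not used here, so how far each row measures its own gene alone is uncertain. The 3 feedback genes are shown in the same way. NFKBIA carries the word of the CXC chemokine promoters on the opposite strand, 81 bases before its start. TNFAIP3 and BIRC3 carry other forms of the site. In NFKBIA and TNFAIP3 the capitals are the reverse complement of the motif, and NFKBIA holds another match 242 bases before its start.
NFKBIA, chr14:35404797-35404855, minus strand: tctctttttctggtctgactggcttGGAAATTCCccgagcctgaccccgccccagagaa
TNFAIP3, chr6:137867167-137867225, plus strand: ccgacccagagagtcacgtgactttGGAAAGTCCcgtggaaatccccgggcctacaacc
BIRC3, chr11:102317324-102317382, plus strand: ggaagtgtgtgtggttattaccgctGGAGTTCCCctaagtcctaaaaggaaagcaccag
The promoter of CCL20 held no match to these letters.

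Between the lines, KATO-III had the highest CXCL1, CXCL2, CXCL3, CXCL5 and CCL20 and the lowest LIF, NFKBIA, TNFAIP3 and BIRC3, whereas SNU-216 had the lowest CXCL5, IL8 and CCL20 and the highest LIF and feedback genes. SNU-601 had the highest IL8. Levels of a line are the mean of its 4 arrays on the log2 scale. limma, with a mean for each population and Benjamini-Hochberg adjustment at 0.05, called all 10 genes different between KATO-III and SNU-216, where 62.0% of all tested genes were called. The 6 chemokines were higher in KATO-III and the other 4 genes were lower. It also called all 10 between KATO-III and SNU-601 (58.6% of all genes), 5 in each direction, and 7 between SNU-216 and SNU-601 (56.5%).

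CXCL5 separated the lines most widely. Its intensity was 7640 and 7171 on the CD133+ and 4271 and 4182 on the CD133- arrays of KATO-III, and 2886 and 2773 on the CD133+ and 2487 and 2416 on the CD133- arrays of SNU-601. In SNU-216 all 4 values, between -8.65 and 3.31, lay under the floor. CXCL5 was therefore at least 171-fold higher in KATO-III and at least 80.6-fold higher in SNU-601 than in SNU-216, and 2.12-fold higher in KATO-III than in SNU-601 (adjusted p = 9.66e-09). The SNU-216 arrays add no spread to this last comparison, and without them its adjusted p was 1.65e-07. The 8 arrays above the floor fell into 4 separate levels, one for each population.

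CCL20 followed the same order of lines. It was read at 3299 and 3214 on the CD133+ and 2507 and 2268 on the CD133- arrays of KATO-III, 1357 and 1536 in CD133+ and 1548 and 1353 in CD133- cells of SNU-601, and 96.0 and 56.6 in CD133+ and 43.4 and 69.4 in CD133- cells of SNU-216. The arrays of the fractions overlapped in SNU-601 and in SNU-216 and did not in KATO-III. The log2 difference between KATO-III and SNU-216 was 5.45 ± 0.183 (standard error, adjusted p = 5.93e-09), and that between SNU-216 and SNU-601 was -4.51 ± 0.183 (adjusted p = 2.29e-08).

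IL8 was ordered differently, with SNU-601 on top. IL8 intensity was 5590 and 6355 in CD133+ and 3439 and 3713 in CD133- cells of SNU-601, 2565 and 2852 on the CD133+ and 1640 and 1500 on the CD133- arrays of KATO-III, and 754 and 882 in CD133+ and 706 and 721 in CD133- cells of SNU-216. No neighbors in this order of the 6 populations overlapped. Relative to SNU-601 the level was 2.24-fold lower in KATO-III (adjusted p = 4.09e-07) and 6.05-fold lower in SNU-216 (adjusted p = 9.74e-10).

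CXCL1, CXCL2 and CXCL3 were highest in KATO-III CD133+ cells and showed the widest scatter between arrays of a population. CXCL1 was 1281 and 1081 on the CD133+ and 894 and 720 on the CD133- arrays of KATO-III, 226 and 506 in CD133+ and 585 and 658 in CD133- cells of SNU-216, and 769 and 659 in CD133+ and 135 and 307 in CD133- cells of SNU-601. The 2 arrays of SNU-216 CD133+ cells and those of SNU-601 CD133- cells lay furthest apart, and they overlapped each other. CXCL2 ranged from 37.0 to 531 and CXCL3 from 30.7 to 94.7, so that CXCL3 lay close to the floor throughout. KATO-III exceeded SNU-216 by 1.08 ± 0.295 in CXCL1, 1.94 ± 0.253 in CXCL2 and 0.55 ± 0.211 in CXCL3 on the log2 scale. SNU-216 and SNU-601 were not called different in any of the 3, with log2 differences of 0.27 ± 0.295, 0.35 ± 0.253 and 0.08 ± 0.211. CXCL2 was called between SNU-216 and SNU-601 without SNU-601 CD133- replicate 1 (adjusted p = 0.0374). The CXCL3 call between KATO-III and SNU-216 (adjusted p = 0.0475) was lost without any 1 of 6 arrays, namely both KATO-III CD133+ arrays (0.120 and 0.0772), KATO-III CD133- replicate 1 (0.148), both SNU-216 CD133+ arrays (0.0857 and 0.110) and SNU-216 CD133- replicate 1 (0.156). That between KATO-III and SNU-601 (0.63 ± 0.211, adjusted p = 0.0289) was lost without any 1 of 5, both KATO-III CD133+ arrays (0.0820 and 0.0531), KATO-III CD133- replicate 1 (0.0994), SNU-601 CD133+ replicate 2 (0.0956) and SNU-601 CD133- replicate 1 (0.101).

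The feedback genes ran in the reverse order, SNU-216 over SNU-601 over KATO-III. NFKBIA was 14418 and 13907 in CD133+ and 15085 and 14693 in CD133- cells of SNU-216, 7591 and 7253 in CD133+ and 5930 and 6067 in CD133- cells of SNU-601, and 3358 and 3285 in CD133+ and 5282 and 5515 in CD133- cells of KATO-III. BIRC3 was 3335 and 3579 in CD133+ and 2226 and 2272 in CD133- cells of SNU-216, 941 and 1084 in CD133+ and 848 and 917 in CD133- cells of SNU-601, and 202 and 204 in CD133+ and 454 and 419 in CD133- cells of KATO-III. TNFAIP3 was 643 and 626 in CD133+ and 725 and 654 in CD133- cells of SNU-216, 415 and 433 in CD133+ and 335 and 410 in CD133- cells of SNU-601, and 82.7 and 83.6 in CD133+ and 178 and 203 in CD133- cells of KATO-III. For each of the 3 genes the 4 arrays of a line lay apart from those of the other lines. SNU-216 exceeded KATO-III by 3.43-fold in NFKBIA, 5.25-fold in TNFAIP3 and 9.36-fold in BIRC3, with adjusted p-values of at most 5.27e-09.

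LIF, the cytokine of the list, had the smallest range between lines apart from CXCL3. It was 259 and 331 in CD133+ and 403 and 401 in CD133- cells of SNU-216, 222 and 224 in CD133+ and 292 and 249 in CD133- cells of SNU-601, and 146 and 125 in CD133+ and 197 and 205 in CD133- cells of KATO-III. In every line the CD133- arrays lay above the CD133+ arrays, and SNU-216 CD133+ overlapped SNU-601 CD133-. LIF was 2.09-fold lower in KATO-III than in SNU-216 (adjusted p = 8.10e-06).

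**Figure D1:**
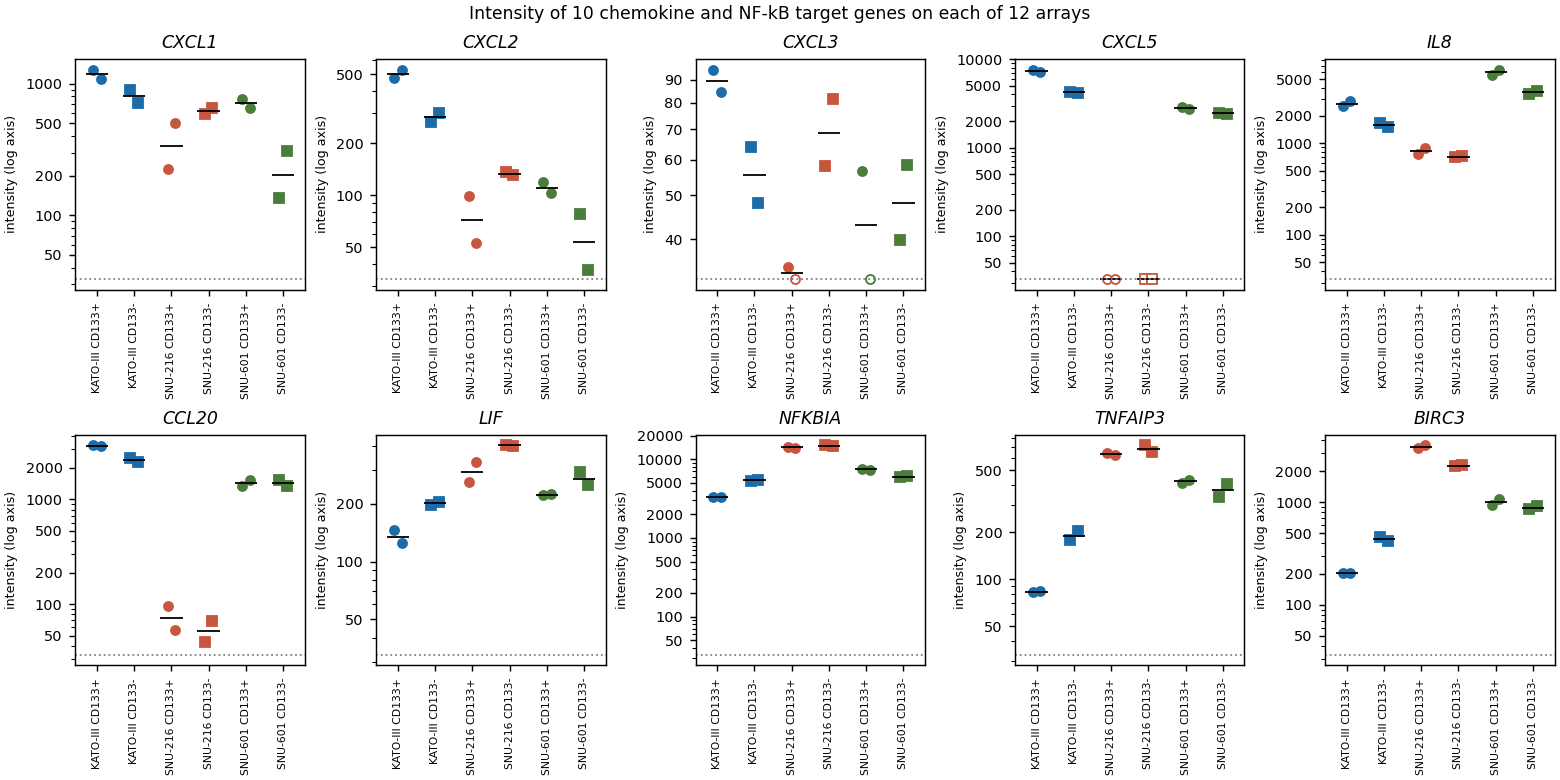
Deposited intensity (log axis) of each gene on the 12 arrays, with circles for CD133+ and squares for CD133- cells, blue for KATO-III, red for SNU-216 and green for SNU-601. Bars are means of the 2 arrays on the log2 scale, the dotted line is the floor of 32.7 and open symbols are values under it, drawn at the floor, as for CXCL5 in all 4 SNU-216 arrays. CXCL5 and CCL20 are lowest in SNU-216, where NFKBIA, TNFAIP3 and BIRC3 are highest.

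**Figure D2:**
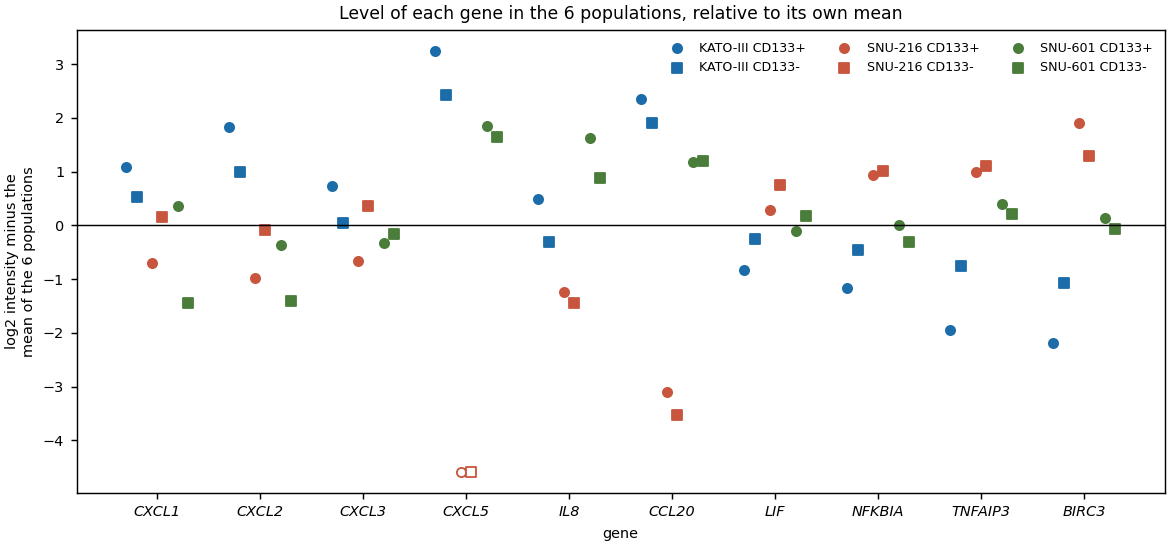
Mean log2 intensity of each gene in the 6 populations, less the mean of the gene over the 6, with circles for CD133+ and squares for CD133- cells and open symbols where no array lay above the floor. KATO-III (blue) lies above SNU-216 (red) for the 6 chemokines on average of both fractions and below it for LIF, NFKBIA, TNFAIP3 and BIRC3.

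In KATO-III the chemokines CXCL5 and IL8 and the 3 feedback genes differed between the fractions in opposite directions. limma called 6 of the 10 genes, where 39.3% of all tested genes were called. CXCL5 and IL8 were higher in CD133+ cells, and LIF, NFKBIA, TNFAIP3 and BIRC3 were lower. The median log2 difference of the 10 was 0.50 here, -0.10 in SNU-216 and 0.20 in SNU-601. In KATO-III the 10 genes split in direction, so their median describes no shared change. That of all tested genes was 0.00 in each line, the value that genes under the floor in both fractions take. The log2 difference, CD133+ minus CD133-, was 0.81 ± 0.0511 (standard error) for CXCL5 (adjusted p = 6.04e-06) and 0.79 ± 0.0955 for IL8 (adjusted p = 0.000220). The SNU-216 arrays, all at the floor for CXCL5, add no spread to its standard error. With them left out, the adjusted p of CXCL5 in KATO-III was 3.73e-05. TNFAIP3 fell by 1.19 ± 0.112 (adjusted p = 5.15e-05), BIRC3 by 1.10 ± 0.0786 (adjusted p = 1.19e-05), NFKBIA by 0.70 ± 0.0428 (adjusted p = 5.12e-06) and LIF by 0.58 ± 0.137 (adjusted p = 0.00910).

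The other 4 chemokines were also read higher in KATO-III CD133+ cells, at 0.55 ± 0.417 for CXCL1, 0.84 ± 0.358 for CXCL2, 0.69 ± 0.299 for CXCL3 and 0.45 ± 0.259 for CCL20, and none was called (adjusted p between 0.0978 and 0.355). Their standard errors draw on the arrays of all 3 lines, including those where CCL20 and CXCL2 lay near the floor. With a floor of 100, CCL20 (adjusted p = 0.00195) and CXCL2 (adjusted p = 6.61e-05) were both called in KATO-III. Both were also called with an offset of 100 in place of the floor (0.00606 and 0.00131). With the 4 SNU-216 arrays left out, CCL20 was called too (0.00641). Without SNU-601 CD133- replicate 1 or 2 the CXCL2 difference stayed 0.84, as these arrays do not enter it. They do enter its standard error, and CXCL2 was called in KATO-III without either of them. The LIF call was lost without KATO-III CD133+ replicate 2 (adjusted p = 0.0643).

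In SNU-601 CXCL1, CXCL5 and IL8 of the 6 chemokines were higher in CD133+ cells, and so was NFKBIA of the 3 feedback genes. limma called 4 of the 10 genes, all higher, where 16.4% of all tested genes were called. CXCL1 was 1.81 ± 0.417 higher on the log2 scale (adjusted p = 0.0193), IL8 0.74 ± 0.0955 (adjusted p = 0.00147), NFKBIA 0.31 ± 0.0428 (adjusted p = 0.00204) and CXCL5 0.21 ± 0.0511 (adjusted p = 0.0257). Without the SNU-216 arrays, which add no spread for CXCL5, the adjusted p of CXCL5 was 0.0339. TNFAIP3 and BIRC3 differed by 0.19 ± 0.112 and 0.20 ± 0.0786 and were not called, nor were CXCL2 (1.04 ± 0.358, called without SNU-601 CD133- replicate 1 with an adjusted p of 0.0233), CXCL3 (-0.17 ± 0.299), CCL20 (-0.00377 ± 0.259) and LIF (-0.27 ± 0.137). The CXCL1 call was lost without SNU-601 CD133+ replicate 1 (adjusted p = 0.0964), CD133+ replicate 2 (0.0659) or CD133- replicate 1 (0.103). That of CXCL5 was lost without any of the 4 SNU-601 arrays (adjusted p of 0.131 and 0.0578 without CD133+ replicate 1 and 2, and 0.0687 and 0.124 without CD133- replicate 1 and 2).

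SNU-216 showed a different set. limma called 3 of the 10 genes, where 28.6% of all tested genes were called, with BIRC3 higher and LIF and CXCL3 lower in CD133+ cells. BIRC3 differed by 0.62 ± 0.0786 on the log2 scale (adjusted p = 0.000496), LIF by -0.46 ± 0.137 (adjusted p = 0.0346) and CXCL3 by -1.03 ± 0.299 (adjusted p = 0.0310). CXCL3 was at 34.8 and 30.7 on the CD133+ and 58.0 and 81.4 on the CD133- arrays, so the floor bounds its difference. CXCL1 (-0.87 ± 0.417) and CXCL2 (-0.88 ± 0.358) were read lower in CD133+ cells and not called. IL8 (0.19 ± 0.0955), CCL20 (0.43 ± 0.259), NFKBIA (-0.07 ± 0.0428) and TNFAIP3 (-0.12 ± 0.112) were not called either. With a floor of 100 CXCL2 was called (log2 difference -0.41, adjusted p = 0.00589). With an offset of 100 in place of the floor CXCL2 (0.0331) and CXCL1 (0.0498) were called. CXCL1 was called without SNU-216 CD133+ replicate 2 (adjusted p = 0.0404), as was CCL20 (0.0490), and CXCL2 without SNU-216 CD133+ replicate 1 (0.0398) or either SNU-601 CD133- array (0.0423 and 0.0415). The CXCL3 call was lost without SNU-216 CD133+ replicate 1 (adjusted p = 0.0961), CD133+ replicate 2 (0.121) or CD133- replicate 2 (0.180). The LIF call was lost without SNU-216 CD133+ replicate 1 (0.210), CD133- replicate 1 (0.115), CD133- replicate 2 (0.111) or either KATO-III CD133- array (0.0507 for each).

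**Figure D3:**
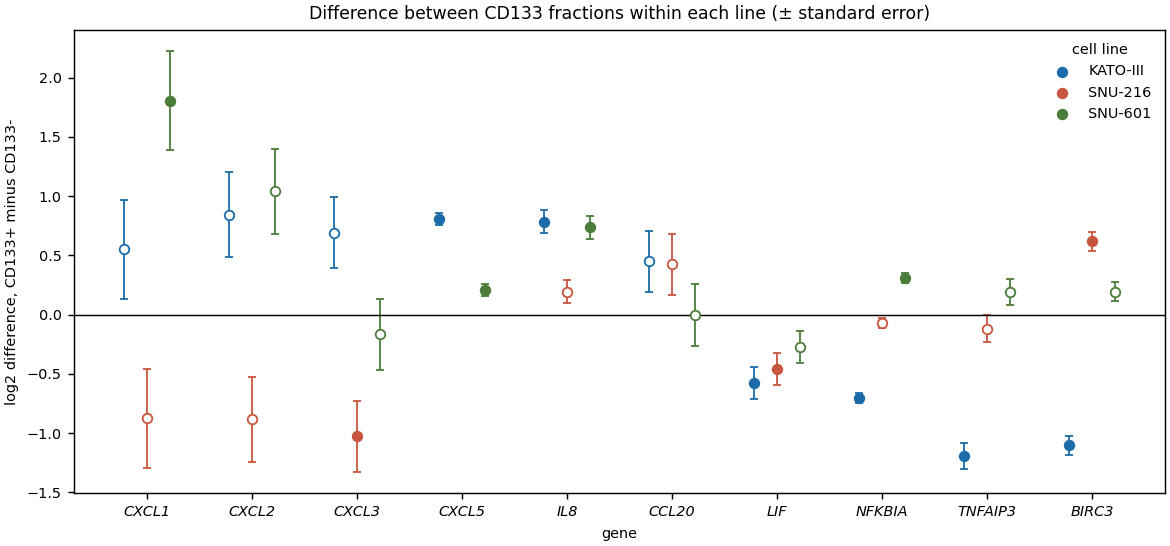
Log2 difference between CD133+ and CD133- cells of each gene in KATO-III (blue), SNU-216 (red) and SNU-601 (green), with standard errors from limma. Filled points passed an adjusted p of 0.05 and open points did not. CXCL5 in SNU-216, under the floor on all arrays, has no point, and BIRC3 runs from -1.10 in KATO-III to 0.62 in SNU-216.

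A test of the interaction (limma's F-test) asked whether the CD133 difference itself varied with the line. It called 8 of these 10, all but CCL20 and LIF, where 44.4% of all tested genes were called. The adjusted p was 1.74e-05 for NFKBIA, 2.03e-05 for BIRC3, 0.000101 for CXCL5 and 0.000349 for TNFAIP3, and between 0.0105 and 0.0254 for IL8, CXCL1, CXCL2 and CXCL3. NFKBIA was called in opposite directions in KATO-III and SNU-601, and BIRC3 in KATO-III and SNU-216. LIF was read lower in CD133+ cells of each line, and its interaction was not called (adjusted p = 0.448). Without SNU-216 CD133- replicate 2, the interaction was not called for CXCL1 (0.0536), CXCL2 (0.0680) or CXCL3 (0.0806), which left 5 genes. CXCL2 lost it without 3 of the 12 arrays and CXCL3 without 6. CXCL5 enters this test with a difference of 0 in SNU-216, which the floor sets. Without the SNU-216 arrays, KATO-III and SNU-601 differed in NFKBIA (adjusted p = 0.000124), BIRC3 (0.000524), CXCL5 (0.00100), TNFAIP3 (0.00176) and CCL20 (0.0334), and were not called different in IL8 (0.808), CXCL2 (0.778), CXCL3 (0.193), CXCL1 (0.0931) or LIF (0.274).

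In a fit of all 3 lines, each line being a block, 2 of the 10 were called against 4.73% of all tested genes. IL8 was 0.57 ± 0.102 higher in CD133+ cells on the log2 scale (adjusted p = 0.0169) and LIF 0.44 ± 0.104 lower (log2 difference -0.44, adjusted p = 0.0387). IL8 was higher in the CD133+ cells of every line and LIF lower. This fit takes the 2 arrays of a population as independent. With population as a random block the adjusted p was 0.191 for IL8 and 0.368 for LIF, and after averaging a population's 2 arrays it was 0.796 for both. LIF was called in 3 of the 12 fits that left out an array, and IL8 in all 12. The signal-to-noise ratio, a measure the study's methods name without a formula, was taken in its usual form, the difference of the fraction means over the sum of their SDs. It lay between -0.437 for LIF and 0.331 for IL8. None of the 10 genes passed the thresholds of 1 and -1, which 0.960% of the 34595 genes with a value did. The SDs span the arrays of all 3 lines, so differences between lines enter them and lower the ratio. A ratio within the thresholds is thus no measured lack of a difference within lines.

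The genes around NF-kB were compared between the fractions in the same fits, by lists of pathway genes. Of 13 subunits and inhibitors of NF-kB, 9 were called in KATO-III (3 higher and 6 lower), 7 in SNU-216 (all lower) and 1 in SNU-601. These are 69.2%, 53.8% and 7.69% of the list, against 39.3%, 28.6% and 16.4% of all tested genes, so that the share in SNU-601 was under that of all genes. Their median log2 difference was -0.01, -0.35 and 0.00, where the median of all tested genes was 0.00 in each line. A gene under the floor in both fractions of a line has a difference of exactly 0. The 0.00 of the list in SNU-601 is such a gene, REL, and the medians of all tested genes are the same exact 0. They are thus no measured lack of a shift. In KATO-III the largest of these were NFKBIZ, an inducible nuclear inhibitor-like protein (-1.30 ± 0.0919), CYLD, a deubiquitinase that opposes NF-kB (-1.08 ± 0.148), and NFKBID (-0.91 ± 0.219). In SNU-216 they were BCL3, a nuclear cofactor of NF-kB (-0.91 ± 0.0772), NFKB2, a subunit (-0.68 ± 0.107), and NFKBIB, an inhibitor (-0.53 ± 0.0809). In SNU-601 the subunit NFKB1 was called (0.28 ± 0.0509).

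Of 29 kinases and adapters upstream of NF-kB, 16 were called in KATO-III (6 higher and 10 lower), 8 in SNU-216 (3 and 5) and 2 in SNU-601 (1 and 1). The shares were 55.2%, 27.6% and 6.90%, so that only the share in KATO-III was above that of all tested genes. The median log2 differences were 0.00, -0.11 and -0.06. The 0.00 in KATO-III comes from a gene under the floor in both fractions there, IRAK3. The kinase RIPK1 (-1.07 ± 0.111) and the paracaspase MALT1 (1.01 ± 0.224) differed most in KATO-III. Of 19 receptors that activate NF-kB, 14 were tested. In KATO-III 6 were called (3 higher and 3 lower), in SNU-216 6 (2 and 4) and in SNU-601 1 (higher). These were 42.9%, 42.9% and 7.14% of those tested, near the share of all genes in KATO-III, above it in SNU-216 and under it in SNU-601, with medians of -0.06, -0.08 and 0.01. TNFRSF1B, a receptor for tumor necrosis factor, was lower in CD133+ cells of KATO-III (-1.19 ± 0.131) and SNU-216 (-1.82 ± 0.131). IL1RAP, the accessory chain of the interleukin-1 receptor, was the 1 called in SNU-601 (0.72 ± 0.104).

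The receptors of the described ligands were mostly at or near the floor. IL8RB, which encodes CXCR2, had population means between 25.9 and 63.7, and CXCR1 between 44.1 and 96.3. LIFR and IL6ST stayed under the floor throughout, whereas CCR6 was read between 3611 and 4260 in the 6 populations. Of this list of 12 genes 10 were tested, and 3 were called in each line. This share of 30% was under that of all tested genes in KATO-III, near it in SNU-216 and above it in SNU-601. STAT3 was lower in CD133+ cells of each, by -0.28 ± 0.0698 in KATO-III, -0.58 ± 0.0698 in SNU-216 and -0.29 ± 0.0698 in SNU-601. CXCR4, the receptor of CXCL12, was higher in the CD133+ fraction of KATO-III (0.86 ± 0.108) and SNU-601 (0.75 ± 0.108) and under the floor in SNU-216.

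Of 37 other target genes of NF-kB 27 were tested. In KATO-III 12 were called (2 higher and 10 lower), in SNU-216 12 (1 and 11) and in SNU-601 6 (2 and 4). The median log2 differences were 0.00, -0.12 and 0.00. Both medians of 0.00 come from genes under the floor in both fractions of the line, as LTB was in KATO-III and SNU-601. The shares were 44.4%, 44.4% and 22.2%, against 39.3%, 28.6% and 16.4% of all tested genes. The largest in SNU-216 were TNFAIP2 (-1.65 ± 0.146), the cytokine LTB (-1.64 ± 0.106) and IER3 (-1.44 ± 0.0707), and in KATO-III the chemokine CX3CL1 (-1.45 ± 0.179), the transcription factor KLF6 (-1.31 ± 0.0446) and the chemokine CXCL10 (-1.14 ± 0.216). CX3CL1 and CXCL10 were under the floor on 1 of the 2 KATO-III CD133+ arrays. TNFAIP2 was lower in CD133+ cells of all 3 lines, with -0.99 ± 0.146 in KATO-III and -0.93 ± 0.146 in SNU-601, where its CD133+ arrays were under the floor. Of 16 chemokines outside the 10 genes, of which CX3CL1, CXCL10, CXCL6, CXCL11, CCL2 and CCL5 are also among these targets, 10 were tested. limma called 5 in KATO-III (1 higher and 4 lower in CD133+ cells) and 3 in SNU-216 (1 and 2). In SNU-601 it called 0, where 0 also had an unadjusted p under 0.05. The shares of 50% and 30% in KATO-III and SNU-216 stand beside 39.3% and 28.6% of all tested genes. CXCL13, a B cell chemokine, was the 1 called higher in KATO-III CD133+ cells (1.94 ± 0.123), and the CD133- arrays lay under the floor. CXCL12 was lower in SNU-216 CD133+ cells, at 365 ± 8.72 (SD, n = 2) against 1617 ± 40.8.

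**Figure D4:**
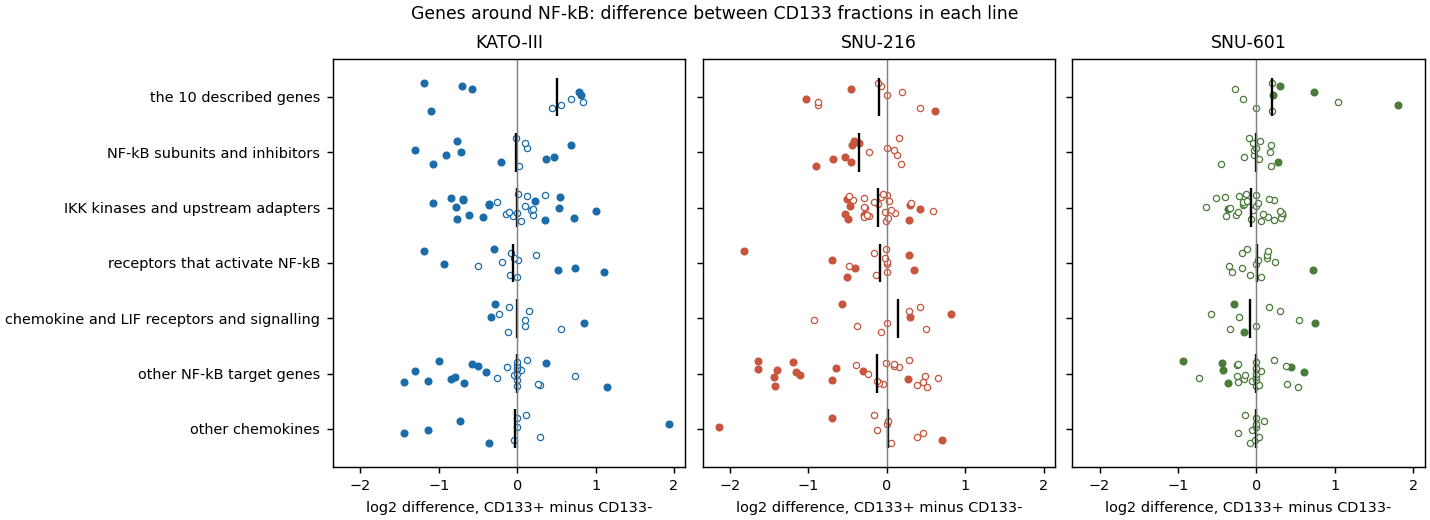
Log2 difference between CD133+ and CD133- cells of the tested genes of each list in KATO-III, SNU-216 and SNU-601. Filled points passed an adjusted p of 0.05, open points did not, and black bars are medians. Genes under the floor in both fractions of a line lie at 0. In SNU-216, 7 of 13 subunits and inhibitors and 12 of 27 other targets were called, against 28.6% of all tested genes.

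For the 3 genes with the widest range among those above the floor on all 12 arrays, the genes of most similar pattern over the arrays were sought among the other 11673 such genes. They were RGS19 (Pearson's r = 0.997), SNORA11D (0.996) and CAMK1 (0.994) for CCL20, LOC729669 (0.993), ARHGAP19 (0.987) and KRT80 (0.986) for BIRC3, and MDP1 (0.971), RNF214 (0.954) and NDUFAB1 (0.953) for CXCL2. These correlations are over 12 arrays of 3 lines, whose levels differ by line, and are a description only.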

How the data were processed

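The authors hybridized RNA of each sorted population to Human HT-12 v3 BeadChips, used BeadStudio per the labels, and deposited linear intensities after quantile normalization, 1 row for each gene symbol. A background had been subtracted, since 32.1% of the values are at or below 0. Its estimate and the combination of probes of a gene are not given in the sources used here. Of 34688 rows, 93 had no value. The planned log2 scale was reached by a floor at the size of the 1st percentile (32.7), chosen after the values were known. The 20147 genes above it on at least 2 of 12 arrays entered limma 3.58.1 under R 4.3.3 (lmFit, eBayes with a trend, Benjamini-Hochberg adjustment over all tested genes). Comparisons within and between lines used a mean for each of the 6 populations (6 residual degrees of freedom), and that over all lines used line as a block (8). Depth does not apply to arrays, and 2 per population limit the precision. Scripts were tested on simulated data. The 10 genes, the gene lists, the comparisons and the motif were chosen with earlier results of these data known. Every gene of the 10 is named, and of each list at most the 3 called genes with the largest difference in a line, plus the receptors of the described ligands, which were named after their values were seen. Promoters came from RefSeq, and figures were drawn with matplotlib 3.10.9 in Python 3.11.15. Same-numbered arrays of different populations did not deviate together (15 correlations between -0.0116 and 0.0276), and the main fits pair no arrays. These correlations cannot show whether same-numbered arrays shared a sort or a culture.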

Additional observations from a re-analysis of the deposited data

Results flagged for a closer look

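The change between CD133 fractions differed between KATO-III, SNU-216 and SNU-601 by limma's test of the interaction for 8 of the 10 genes, where it called 44.4% of all tested genes. The adjusted p was 1.74e-05 for NFKBIA, 2.03e-05 for BIRC3, 0.000101 for CXCL5, 0.000349 for TNFAIP3, 0.0105 for IL8, 0.0150 for CXCL1, 0.0224 for CXCL2 and 0.0254 for CXCL3. The difference rests only on the spread between the 2 arrays of each population. What moves with it was not tested.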

How the results depend on the processing

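With an array left out at a time, the number of the 10 genes called between fractions was 5 to 7 in KATO-III, 1 to 4 in SNU-216, 2 to 4 in SNU-601 and 1 to 2 over all lines, and the interaction was called for 5 to 8. Between lines it was 9 to 10 for KATO-III against either line and 7 to 8 for SNU-216 against SNU-601, and 0 to 0 passed the signal-to-noise threshold. The single SNU-216 call was reached without SNU-216 CD133- replicate 2, and 2 calls in SNU-601 without SNU-601 CD133+ replicate 1 or 2. With an offset of 100 in place of the floor SNU-216 had 5 calls. The offset also brought calls of CXCL2 and CCL20 in KATO-III and of CXCL2 in SNU-601 (adjusted p = 0.0451). A floor of 100 brought calls of CXCL2 and CCL20 in KATO-III, of CXCL2 in SNU-216 and of the interaction for CCL20 (0.0132). With no filter on low values SNU-216 had 1 call and the interaction 5. Without the filter the calls of CXCL1 in SNU-601 (adjusted p = 0.0860) and of CXCL3 between KATO-III and SNU-216 (0.137) and SNU-601 (0.0930) were also lost. The CXCL5 call in SNU-601 was lost with the offset (0.0710) and without a trend (0.0556). The CXCL3 call between KATO-III and SNU-216 was lost too with a floor of 16 (0.0670), the offset (0.0638), centred arrays (0.0544) and no trend (0.0536). Leaving out all 4 SNU-216 arrays, an alternative chosen after seeing the data, gave 5 for the interaction. Over all lines 1 gene was called with a replicate block (LIF missed at an adjusted p of 0.0643), and 0 after averaging a population's arrays or with population as a random block. The labels link the same-numbered arrays by a number only, and the block also ended the CXCL3 call between KATO-III and SNU-216 (0.0619). Of all tested genes, 953 were called over all lines, against 425 with no filter, 471 with the replicate block, 0 with averaged arrays and 1 with the random block and as few as 229 with an array left out (KATO-III CD133+ replicate 1). In SNU-601 3298 were called, against 2148 without SNU-601 CD133+ replicate 1, and for the interaction 8947, against 5815 without the SNU-216 arrays.

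Some uncalled log2 differences changed sign. CCL20 in SNU-601 was 0.029 with arrays centred on their medians and -0.10 to 0.094 with an array left out. Over the same fits CXCL3 ran from -0.56 to 0.23 in SNU-601, from -0.12 to 0.28 between SNU-216 and SNU-601 and from -0.33 to 0.0019 over all lines, CXCL1 from -0.029 to 0.56 between SNU-216 and SNU-601, and BIRC3 from -0.20 to 0.045 over all lines. The cause was not tested. Signal near the floor limits CXCL3 throughout, CXCL2 in SNU-216 and SNU-601, and CXCL5 and CCL20 in SNU-216.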
